A study of Homo sapiens with 5 samples.

Results

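The genes described here are those of DNA replication: the origin recognition and licensing factors, the replicative helicase and its activators, the DNA polymerases with their clamp and clamp loader, the enzymes that finish and protect the new strands, the makers of deoxynucleotides, and the E2F factors and cyclins that drive these genes at the start of S phase. The 59 members were chosen by gene symbol, and all 59 were found among the 13822 genes of the deposited table. They were measured in RH4, an established cell line of alveolar rhabdomyosarcoma, a childhood soft tissue tumour with features of immature skeletal muscle. The cells were transfected at 30 nM, with the Dharmafect-1 reagent, with either a control siRNA (si-SCR, 3 libraries) or a siRNA against the back-splice junction of circVAMP3 (si-circVAMP3, 2 libraries), a circular RNA made from exons of the VAMP3 gene. RNA was sampled 48 h after transfection, with fresh medium given midway, and stranded libraries were made from polyadenylated RNA. A single siRNA sequence of each kind and a single cell line were used, so effects of the sequence and of the loss of its target cannot be told apart here.

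Replication starts where the origin recognition complex sits on chromatin and, with CDC6 and CDT1, loads the MCM helicase as an inactive ring. The kinase CDC7 with DBF4, the GINS complex, CDC45 and MCM10 then turn that ring into a moving helicase, behind which DNA polymerases alpha, delta and epsilon copy the strands with the PCNA clamp. Most of these genes are switched on together late in G1 by E2F factors once cyclin-dependent kinases inactivate the RB proteins, which is why their RNAs are widely read as markers of cells entering S phase.

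The siRNA defines the groups, so its sequence is shown first, as listed by the study, with the bases that match the upstream exon in capitals.
si-circVAMP3: caucaucgGUGGUGGACAUuu
Its first 19 bases match the junction of the GRCh38 transcript model of VAMP3 on the plus strand: 8 bases from the end of exon 4 (chr1:7778118-7778169) are followed by 11 bases from the start of exon 3 (chr1:7777160-7777318), the reverse of their order in the linear mRNA. VAMP3 itself, which encodes a SNARE protein of endosomal membranes, was listed at 36.4, 35.4 and 37.4 FPKM in the si-SCR libraries and 29.4 and 30.2 FPKM in the si-circVAMP3 libraries. Every si-circVAMP3 value was below every si-SCR value, with a log2 fold change of −0.29 (SE 0.043, limma adjusted p = 0.00496). Without si-circVAMP3 1 it did not pass (limma adjusted p = 0.0507). Reads from the circle and from the linear mRNA share these exons, and libraries of polyadenylated RNA are made from linear RNA, so these values do not give the level of the circle.

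The table gives FPKM, that is, reads scaled by gene length and by library size, which allows levels to be compared between genes. The whole read numbers behind the values could be recovered. The effective library sizes that scaled them were 26672263, 24991642 and 24946721 for si-SCR 1, 2 and 3 and 18533740 and 28798388 for si-circVAMP3 1 and 2. These are scaling sizes rather than counts of sequenced reads. Each member had at least 252 reads in every library (POLA2) and at most 24234 (MCM7), so the abundant members rest on many more reads than the rare ones. On the first principal component of the tested genes, which held 67.2% of the variance, both si-circVAMP3 libraries lay apart from all 3 si-SCR libraries, and the second, with 18.0%, set si-SCR 3 apart from si-SCR 1 and 2. The departure of si-SCR 3 followed base composition, and it touches the GC-rich members POLD1 and CDT1 most, as described with those genes. More or fewer cells in S phase and more or less RNA per cell cannot be told apart in such bulk libraries.

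With the siRNA against circVAMP3, replication genes changed by small amounts and in a mixed pattern. CCNE2, E2F3, ORC3 and ORC1 rose by 29.4% to 36.0% in mean FPKM, whereas RPA1, GINS2, CCNA2 and RFC1 fell by 16.4% to 19.0%. Of the 59 members, 23 passed the test (39.0%), against 30.4% of all 12245 genes tested (3723 genes). Among these, 19 members were higher (32.2%, against 14.6% of all genes) and 4 were lower (6.78%, against 15.8% of all genes). The test was limma's moderated test on log2(FPKM + 0.5), with adjustment by Benjamini and Hochberg over all genes tested and a threshold of 0.05. Fold changes are given on that log2 scale, as si-circVAMP3 minus si-SCR.

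The changes were modest in size. None of the 59 members passed the study's added threshold of an absolute log2 fold change above 0.58 in limma, which 466 genes (3.81%) passed, and none did in any of the 15 alternatives to this test that were run. The median log2 fold change was 0.11 over the members and 0.007 over all genes tested, and the median absolute log2 fold change of the called genes was 0.24 for members and 0.33 for all genes. Between the 2 groups the samples did not overlap for 43 members, of which 30 were higher in both si-circVAMP3 libraries (50.8%, against 29.5% of all genes) and 13 lower (22%, against 28.9%). The plot of fold changes by role shows the members one by one.

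**Figure D1:**
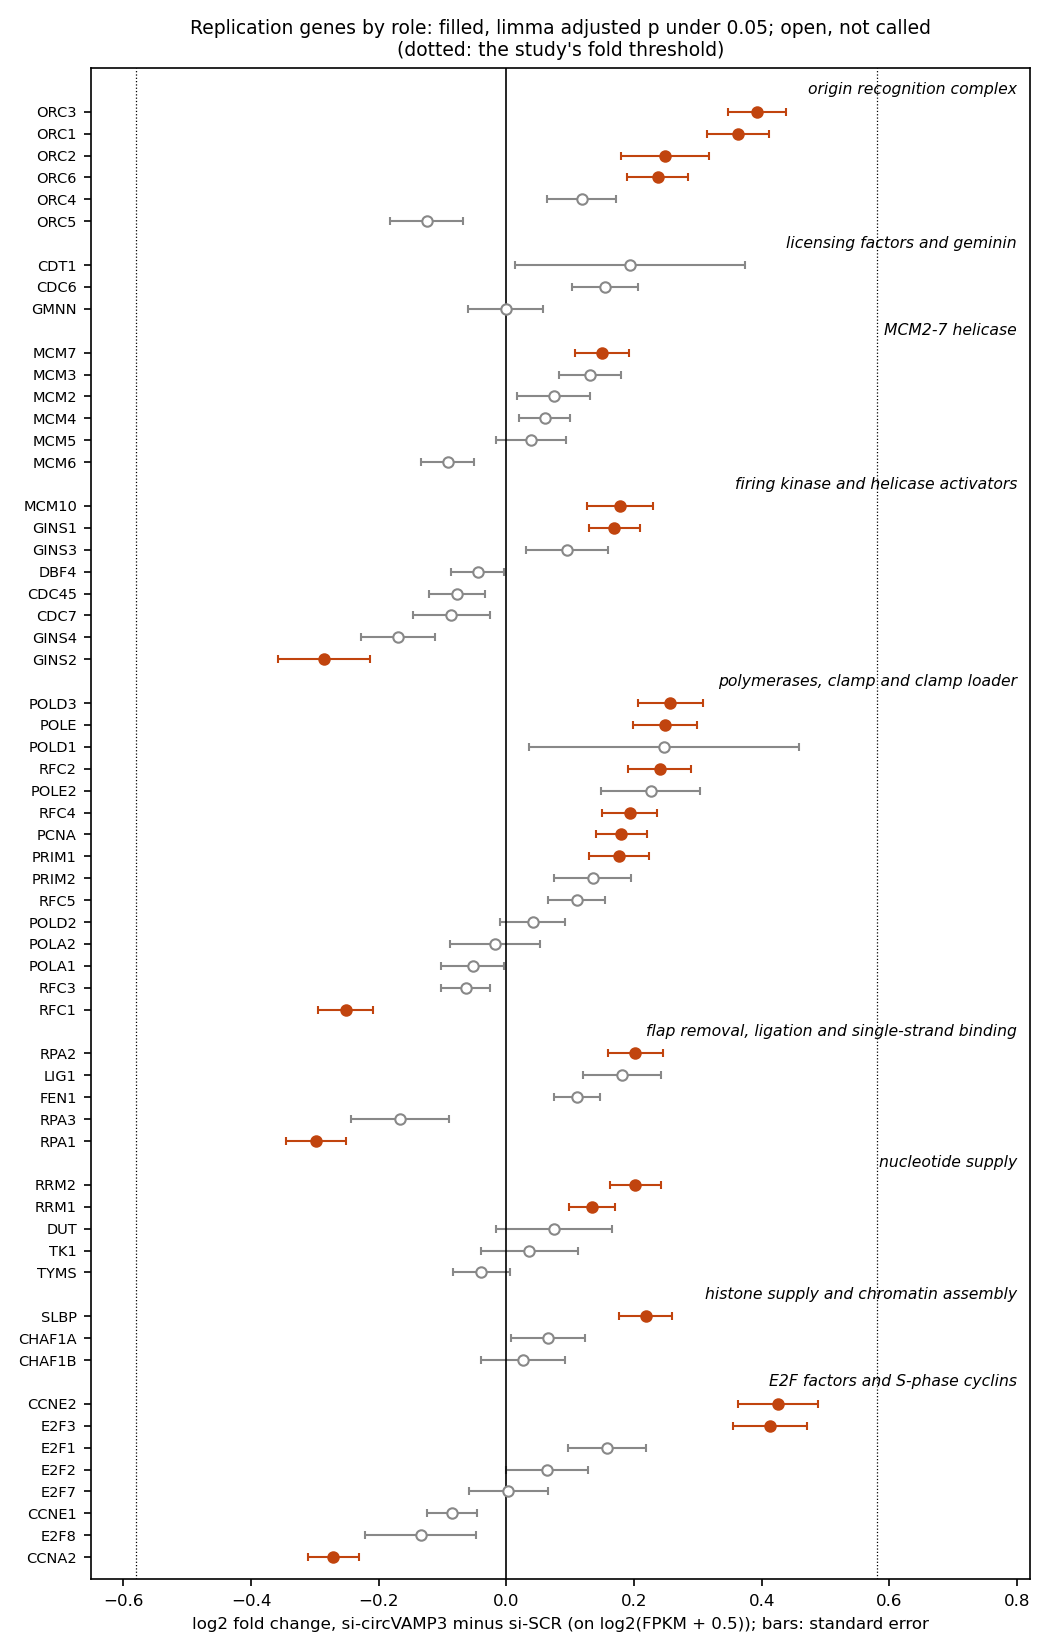
Log2 fold change (si-circVAMP3 minus si-SCR, on log2(FPKM + 0.5)) of all 59 members, grouped by role, with bars for the standard error; filled points passed limma's test at an adjusted p under 0.05 and dotted lines mark an absolute log2 fold change of 0.58. The 19 filled points on the right and 4 on the left all lie between −0.30 and 0.43, inside the dotted lines.

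How many members were called depended on which library was left out. Without si-SCR 2 the count was 12 (2199 over all genes), without si-circVAMP3 1 it was 7 (1305 over all genes) and without si-circVAMP3 2 it was 5 (1260 over all genes), while the direction of all 23 stayed the same in each of the 15 alternatives. ORC1, ORC3, E2F3, CCNE2 and CCNA2 passed in all 15 alternatives. RFC2 and RPA1 passed in 14, losing the call without si-circVAMP3 2. Each of the other 16 lost the call when si-circVAMP3 1 was left out, and again when si-circVAMP3 2 was left out. Of these, MCM7, RRM1, MCM10, PRIM1 and ORC2 were also lost without si-SCR 1, and those 5 with GINS1, GINS2, ORC6, PCNA, RFC4 and RPA2 without si-SCR 2. MCM7, RRM1, MCM10, PRIM1 and GINS1 were lost without the variance trend as well, and MCM7, RRM1, MCM10 and PCNA with the replicate number as a block. Without si-SCR 3, the library that stands apart, 23 members passed, 22 of them shared with the full comparison.

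The origin recognition complex, which marks the sites where replication can begin, held 4 called members of 6, all higher (66.7%, against 14.6% of all genes). ORC3 (ENSG00000135336), a core subunit, was listed at 22.8, 21.8 and 23.1 FPKM in the si-SCR libraries and 30.3 and 29.4 FPKM in the si-circVAMP3 libraries. ORC1 (ENSG00000085840), the subunit whose abundance is regulated through the cell cycle and which binds ATP to close the ring on DNA, was listed at 20.2, 20.4 and 20.4 FPKM in the si-SCR libraries and 27.4 and 25.3 FPKM in the si-circVAMP3 libraries. Both genes were higher in each si-circVAMP3 library than in any si-SCR library, and the si-SCR values of ORC1 spanned less than 1 FPKM. Their log2 fold changes were 0.39 (SE 0.045, limma adjusted p = 0.00188) and 0.36 (SE 0.048, limma adjusted p = 0.00312).

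ORC2, which stays on chromatin through the cycle, was listed at 5.61, 5.30 and 6.08 FPKM in the si-SCR libraries and 6.77 and 6.85 FPKM in the si-circVAMP3 libraries. ORC6, the small subunit needed to recruit the MCM ring, was listed at 20.7, 20.5 and 21.7 FPKM in the si-SCR libraries and 25.5 and 24.1 FPKM in the si-circVAMP3 libraries. Again both si-circVAMP3 libraries lay above all si-SCR libraries, with log2 fold changes of 0.25 (SE 0.069, limma adjusted p = 0.036) for ORC2 and 0.24 (SE 0.048, limma adjusted p = 0.0131) for ORC6. The remaining subunits did not pass the test: ORC4, an ATP-binding subunit, had a log2 fold change of 0.12 (SE 0.054, limma adjusted p = 0.145) and ORC5, another of the ring, −0.12 (SE 0.057, limma adjusted p = 0.143). ORC5 was the sole subunit with a value below 0, and its si-circVAMP3 values were both below the si-SCR values.

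None of the 3 licensing genes passed limma's test at the adjusted threshold, and 1 had an unadjusted p under 0.05. CDC6, the most abundant of them per length and the ATPase that helps load the helicase, was listed at 25.8, 26 and 28 FPKM in the si-SCR libraries and 30.2 and 29 FPKM in the si-circVAMP3 libraries. Its groups did not overlap, with a log2 fold change of 0.15 (SE 0.052, limma adjusted p = 0.0635), and it passed in 4 of the 15 alternatives: without si-SCR 3 (limma adjusted p = 0.018), with the replicate block (0.0437), with limma-voom on recovered reads (0.0462) and with the GC correction (0.0123). CDT1, which brings the MCM ring to the origin complex, was listed at 13.7, 11.2 and 8.41 FPKM in the si-SCR libraries and 11.9 and 13.3 FPKM in the si-circVAMP3 libraries. The lowest and the highest of these 5 values were both si-SCR libraries, so the groups overlapped, and its log2 fold change was 0.19 (SE 0.18, limma adjusted p = 0.454). GMNN encodes geminin, the inhibitor of CDT1, and its log2 fold change was −0.001 (SE 0.059, limma adjusted p = 0.99).

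Genes of the MCM2-7 ring, the engine of the replicative helicase, had means over the 5 libraries from 22.2 FPKM for MCM5 to 183 FPKM for MCM7. MCM7 was listed at 174, 181 and 172 FPKM in the si-SCR libraries and 198 and 192 FPKM in the si-circVAMP3 libraries. It alone of the 6 passed the test (16.7% higher, against 14.6% of all genes). Its log2 fold change was 0.15 (SE 0.042, limma adjusted p = 0.0369), the smallest but one among the called members. Its call was kept in 7 of the 15 alternatives, the fewest of any called member, and was lost under quantile normalization (limma adjusted p = 0.0596) and with any 1 library left out. MCM2, MCM3, MCM4 and MCM5 had log2 fold changes from 0.039 to 0.13, none of which passed. MCM6 had a log2 fold change of −0.092 (SE 0.041, limma adjusted p = 0.132), with both si-circVAMP3 values, 138 and 134 FPKM, below the si-SCR values of 141, 146 and 148 FPKM, and passed under quantile normalization alone, with −0.144 (limma adjusted p = 0.0273). The ring's subunits work in equal numbers in the cell, and here their RNAs spread over a range of log2 fold changes from −0.092 to 0.15.

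Of the 8 genes of the firing kinase and the helicase activators, 2 rose (25%, against 14.6% of all genes) and 1 fell (12.5%, against 15.8%). GINS2 (ENSG00000131153), a subunit of the 4-part GINS complex that joins CDC45 and the MCM ring, was listed at 42, 46 and 49.4 FPKM in the si-SCR libraries and 36.2 and 38.6 FPKM in the si-circVAMP3 libraries. Both si-circVAMP3 libraries were lower than all si-SCR libraries, which differed among themselves by more than 7 FPKM. GINS1, of the same complex, was listed at 34.2, 32.9 and 34 FPKM in the si-SCR libraries and 38 and 37.8 FPKM in the si-circVAMP3 libraries. It was higher in both si-circVAMP3 libraries, so that 2 partners of a single complex passed the test in opposite directions, with log2 fold changes of −0.28 (SE 0.072, limma adjusted p = 0.0271) for GINS2 and 0.17 (SE 0.040, limma adjusted p = 0.0217) for GINS1. The other subunits, GINS3 and GINS4, had log2 fold changes of 0.095 and −0.17, and neither passed.

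MCM10, a scaffold that helps start the helicase and recruits polymerase alpha, was listed at 11, 10.7 and 11.2 FPKM in the si-SCR libraries and 12.9 and 12.1 FPKM in the si-circVAMP3 libraries. It was higher in both si-circVAMP3 libraries, with a log2 fold change of 0.18 (SE 0.051, limma adjusted p = 0.0401). CDC7 and its partner DBF4 form the kinase that fires origins, and CDC45 is part of the moving helicase. Their log2 fold changes were −0.086, −0.045 and −0.077, and none passed.

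Among the 15 genes of polymerases, clamp and clamp loader, 6 rose (40%, against 14.6% of all genes) and 1 fell (6.67%, against 15.8%). PCNA, the sliding clamp that keeps polymerases on DNA, was the most abundant of them at 150.2, 146 and 147 FPKM in the si-SCR libraries and 164 and 171 FPKM in the si-circVAMP3 libraries. RFC2, a subunit of the clamp loader, was listed at 45.7, 48.1 and 48.6 FPKM in the si-SCR libraries and 54.3 and 58.1 FPKM in the si-circVAMP3 libraries. RFC4, also of the clamp loader, was listed at 32.2, 32.9 and 34 FPKM in the si-SCR libraries and 37.3 and 38.3 FPKM in the si-circVAMP3 libraries. These 3 genes were higher in both si-circVAMP3 libraries, with log2 fold changes of 0.18 (SE 0.040, limma adjusted p = 0.0168), 0.24 (SE 0.049, limma adjusted p = 0.0134) and 0.19 (SE 0.043, limma adjusted p = 0.0175). For PCNA the value was 0.102 and not called under quantile normalization (limma adjusted p = 0.0914), and the call was also lost with the replicate block (limma adjusted p = 0.0556). RFC1 (ENSG00000035928), the large subunit that sets the loader to PCNA in replication, went the other way, from 23.9 ± 0.553 FPKM (SD, n = 3) to 20.0 ± 0.282 FPKM (SD, n = 2). Its 5 values were 23.4, 23.9 and 24.5 FPKM with si-SCR and 19.8 and 20.2 FPKM with si-circVAMP3, which do not overlap, and its log2 fold change was −0.25 (SE 0.043, limma adjusted p = 0.00735). The remaining loader subunits RFC3 and RFC5 had log2 fold changes of −0.064 and 0.11 and did not pass.

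POLE, the catalytic subunit of the leading-strand polymerase epsilon, was listed at 14.8, 15.6 and 14.5 FPKM in the si-SCR libraries and 18.1 and 17.6 FPKM in the si-circVAMP3 libraries. POLD3, an accessory subunit of the lagging-strand polymerase delta, was listed at 9.63, 10.4 and 9.91 FPKM in the si-SCR libraries and 12 and 12 FPKM in the si-circVAMP3 libraries. PRIM1, the catalytic subunit of primase, which lays down the RNA primers, was listed at 17.2, 17.5 and 18.4 FPKM in the si-SCR libraries and 19.9 and 20.2 FPKM in the si-circVAMP3 libraries. In all 3, the si-SCR libraries were lower without overlap, and log2 fold changes were 0.25 (SE 0.050, limma adjusted p = 0.0125), 0.26 (SE 0.051, limma adjusted p = 0.0122) and 0.18 (SE 0.047, limma adjusted p = 0.0314). The other polymerase genes did not pass. POLE2, of polymerase epsilon, had a log2 fold change of 0.23 and PRIM2, the large primase subunit, 0.14, both without overlap of the groups. POLA1 and POLA2, of polymerase alpha, had log2 fold changes of −0.053 and −0.018, and POLD2, of polymerase delta, 0.041. For POLD1, the catalytic subunit of polymerase delta, the 5 values were 13, 10.5 and 7.25 FPKM with si-SCR and 11.1 and 12.8 FPKM with si-circVAMP3. As with CDT1, its lowest value was si-SCR 3, the groups overlapped, and its log2 fold change was 0.25 (SE 0.21, limma adjusted p = 0.418).

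Replication protein A coats the single strands exposed at the fork, and 2 of its 3 subunits were called in opposite directions. RPA1 (ENSG00000132383), the large DNA-binding subunit, was listed at 30.9, 30.0 and 30.6 FPKM in the si-SCR libraries and 25.6 and 23.8 FPKM in the si-circVAMP3 libraries. RPA2, the middle subunit that checkpoint kinases phosphorylate, was listed at 53.9, 53.6 and 56.4 FPKM in the si-SCR libraries and 64 and 61.8 FPKM in the si-circVAMP3 libraries. RPA1 was lower and RPA2 higher in both si-circVAMP3 libraries, with log2 fold changes of −0.30 (SE 0.047, limma adjusted p = 0.00554) and 0.20 (SE 0.043, limma adjusted p = 0.0146). The small subunit RPA3 had a log2 fold change of −0.17 (SE 0.077, limma adjusted p = 0.145). FEN1, the nuclease that trims the flaps of Okazaki fragments, was listed at 90.6, 90.8 and 89 FPKM in the si-SCR libraries and 97.1 and 97.7 FPKM in the si-circVAMP3 libraries. Its groups did not overlap, yet its log2 fold change of 0.11 (SE 0.036, limma adjusted p = 0.0576) did not pass. LIG1, the ligase that seals the fragments, had a log2 fold change of 0.18 (SE 0.061, limma adjusted p = 0.0649), and passed with limma-voom alone.

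In nucleotide supply, both subunits of ribonucleotide reductase, the enzyme that makes deoxynucleotides from ribonucleotides, rose. RRM2, the subunit that is made in S phase, was listed at 34.4, 34.1 and 34.5 FPKM in the si-SCR libraries and 40.4 and 38.7 FPKM in the si-circVAMP3 libraries. RRM1, the large subunit, was listed at 64.5, 65 and 64.2 FPKM in the si-SCR libraries and 70.9 and 70.8 FPKM in the si-circVAMP3 libraries. In each case the si-SCR libraries lay within 1 FPKM of one another and below both si-circVAMP3 libraries, with log2 fold changes of 0.20 (SE 0.040, limma adjusted p = 0.0119) and 0.13 (SE 0.036, limma adjusted p = 0.0318). The call of RRM1 was kept in 8 of the 15 alternatives, and was lost under quantile normalization (limma adjusted p = 0.051), without the variance trend (0.0852), with the replicate block (0.0815) and without any 1 library other than si-SCR 3. TYMS, which makes thymidylate and is the most abundant gene of this role, was listed at 119, 122 and 126 FPKM in the si-SCR libraries and 116 and 122 FPKM in the si-circVAMP3 libraries. Its groups overlapped, as did those of TK1, which salvages thymidine, and of DUT, which removes dUTP. Their log2 fold changes were −0.039 (SE 0.044, limma adjusted p = 0.546) for TYMS, 0.036 for TK1 and 0.075 for DUT.

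Of the genes for histones and chromatin assembly, SLBP, which binds and protects the histone mRNAs of S phase, was listed at 71.2, 70.9 and 74.8 FPKM in the si-SCR libraries and 84 and 84.2 FPKM in the si-circVAMP3 libraries. It was higher in both si-circVAMP3 libraries, with a log2 fold change of 0.22 (SE 0.041, limma adjusted p = 0.0101). CHAF1A and CHAF1B, subunits of the assembly factor that places histones behind the fork, had log2 fold changes of 0.065 and 0.026, and neither passed.

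The regulators of S-phase entry held the members with the highest fold changes and 1 of the 4 that fell. Of the 8 regulators, 2 were higher (25%, against 14.6% of all genes) and 1 lower (12.5%, against 15.8%). CCNE2 (ENSG00000175305), a cyclin E that activates CDK2 at the start of S phase, was listed at 12, 12.3 and 12.5 FPKM in the si-SCR libraries and 17.8 and 15.6 FPKM in the si-circVAMP3 libraries. E2F3 (ENSG00000112242), an activator of the E2F family, was listed at 9.77, 9.44 and 10.5 FPKM in the si-SCR libraries and 13.5 and 13.2 FPKM in the si-circVAMP3 libraries. Their log2 fold changes were 0.43 (SE 0.063, limma adjusted p = 0.00468) and 0.41 (SE 0.058, limma adjusted p = 0.00379), and no si-circVAMP3 value overlapped a si-SCR value. CCNA2 (ENSG00000145386), the cyclin A that drives S phase and the entry into mitosis, was the most abundant gene of this role at 109, 109.5 and 114 FPKM in the si-SCR libraries and 93 and 90.9 FPKM in the si-circVAMP3 libraries. It was lower in both si-circVAMP3 libraries, with a log2 fold change of −0.27 (SE 0.040, limma adjusted p = 0.00442).

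Other cyclin and E2F members did not pass. CCNE1, the paralogue of CCNE2, was the more abundant per length of the pair at 90.6, 94.9 and 92.9 FPKM in the si-SCR libraries and 86.9 and 88 FPKM in the si-circVAMP3 libraries. Its groups did not overlap, with the si-circVAMP3 libraries lower and a log2 fold change of −0.085 (SE 0.039, limma adjusted p = 0.146). E2F1 and E2F2, the other activators, had log2 fold changes of 0.16 (SE 0.061, limma adjusted p = 0.0951) and 0.064, and E2F1 passed without si-SCR 1 alone. E2F7 and E2F8, which repress E2F target genes, had 0.003 and −0.13.

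**Figure D2:**
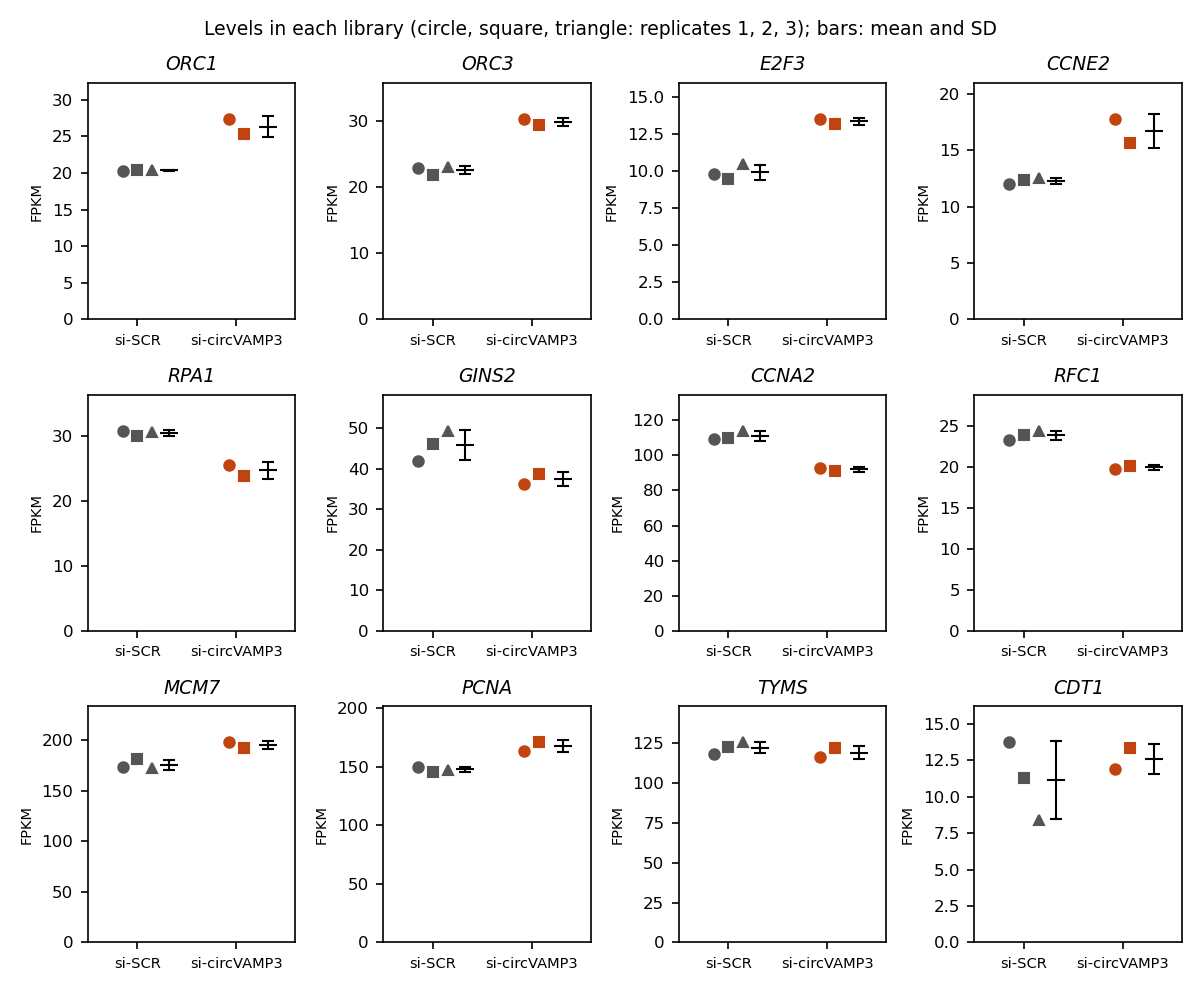
FPKM of 12 members in each library, with grey points for si-SCR, red points for si-circVAMP3, and bars for the mean and SD of each group (n = 3 and n = 2); each axis starts at 0. ORC1, ORC3, E2F3 and CCNE2 are higher and RPA1, GINS2, CCNA2 and RFC1 lower in both si-circVAMP3 libraries, whereas TYMS overlaps and CDT1 is spread from 8.41 to 13.7 FPKM within si-SCR alone.

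E2F sites and CCAAT boxes are the classical elements of such promoters, so the start regions of the members were searched. RefSeq promoters of GRCh38.p14, from 250 bases before to 50 bases after a start, were matched for 51 of the 59 members, giving 67 promoters. An E2F-like word (TTTCCCGC, TTTCGCGC, TTTGCCGC or TTTGGCGC, on either strand) was found in 24 of the 67 (35.8%), against 3.31% of all 35116 promoters and 5.07% of those of tested genes. The word CCAAT, on either strand, was found in 34 of the 67 (50.7%), against 34.6% of all promoters and 35.5% of those of tested genes. The word of the cell cycle homology region, TTTGAA or TTCGAA on either strand, which marks many genes of G2 and mitosis, was found in 5 of the 67 (7.46%), against 16.4% of all promoters and 11.9% of those of tested genes.

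Split by call, E2F-like words were in 6 of the 21 promoters of members that rose, 1 of the 4 of members that fell and 17 of the 42 of members not called. CCAAT was in 17 of 21, 4 of 4 and 13 of 42 promoters in the same order, whereas over all tested genes its share was 38.4% for genes that rose, 34.9% for genes that fell and 35.0% for genes not called. These are counts of letters in a window, and no test was made on them. The pairs of called members with the largest changes in each direction, leaving CCNE2 aside, are shown with the matched words in capitals.
E2F3, chr6:20401629-20401928, plus strand: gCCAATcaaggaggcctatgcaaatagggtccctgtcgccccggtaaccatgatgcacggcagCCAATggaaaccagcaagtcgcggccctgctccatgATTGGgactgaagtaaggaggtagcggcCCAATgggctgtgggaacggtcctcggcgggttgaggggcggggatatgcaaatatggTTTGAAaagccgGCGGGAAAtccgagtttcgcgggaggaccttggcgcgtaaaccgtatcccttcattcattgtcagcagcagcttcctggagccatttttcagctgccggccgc
ORC3, chr6:87589885-87590184, plus strand: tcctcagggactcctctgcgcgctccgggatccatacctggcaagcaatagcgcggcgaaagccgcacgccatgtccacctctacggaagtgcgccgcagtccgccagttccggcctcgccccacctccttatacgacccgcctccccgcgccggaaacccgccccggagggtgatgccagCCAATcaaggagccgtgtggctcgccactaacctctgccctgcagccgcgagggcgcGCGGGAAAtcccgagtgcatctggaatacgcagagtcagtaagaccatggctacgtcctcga
RPA1, chr17:1829755-1830054, plus strand: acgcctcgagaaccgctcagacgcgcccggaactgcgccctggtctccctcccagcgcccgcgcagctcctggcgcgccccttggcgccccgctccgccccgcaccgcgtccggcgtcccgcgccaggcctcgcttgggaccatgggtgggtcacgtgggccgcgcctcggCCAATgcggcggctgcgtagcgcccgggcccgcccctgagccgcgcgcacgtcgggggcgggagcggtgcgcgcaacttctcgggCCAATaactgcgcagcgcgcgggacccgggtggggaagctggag
GINS2, chr16:85688905-85689204, minus strand: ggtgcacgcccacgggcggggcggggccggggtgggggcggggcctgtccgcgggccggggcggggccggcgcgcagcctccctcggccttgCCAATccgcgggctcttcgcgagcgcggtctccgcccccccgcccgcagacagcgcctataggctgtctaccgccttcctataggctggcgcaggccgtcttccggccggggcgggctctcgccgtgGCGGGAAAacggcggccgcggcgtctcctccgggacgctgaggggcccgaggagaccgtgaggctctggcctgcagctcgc
E2F3 has a further promoter in the table, which held none of these words. In the windows shown, the E2F-like word began 53 bases before the start in E2F3, 12 bases before it in ORC3 and 31 bases before it in GINS2, in the same orientation in all of them, and none was found in this window of RPA1. The E2F3 window shown also held 4 CCAAT words and 1 TTTGAA word. RPA1 held 2 CCAAT words, 1 of them after the start, and ORC3 and GINS2 held 1 each. No matched word overlapped another in these 4 windows.

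Other replication genes, from a list chosen by name with earlier results of these data known, moved less to one side. Of 93 tested, 35.5% were called by the same test, against 30.4% of all genes, with a median log2 fold change of 0.045. Of them, 20 were higher (21.5%, against 14.6% of all genes) and 13 lower (14.0%, against 15.8% of all genes). The total called in this list was 33 in the main test and 18 without si-SCR 2 (2199 over all genes). It was also lower when si-circVAMP3 1 or si-circVAMP3 2 was left out. The largest change was in MYBL2, the B-MYB factor that acts with the MuvB complex on genes of S phase and mitosis, which was listed at 199, 225 and 201 FPKM in the si-SCR libraries and 107 and 103 FPKM in the si-circVAMP3 libraries. LRWD1, a protein that helps hold the origin recognition complex on chromatin, was listed at 9.72, 8.46 and 7.86 FPKM in the si-SCR libraries and 4.23 and 4.59 FPKM in the si-circVAMP3 libraries. Both fell by about 1 unit on the log2 scale, with log2 fold changes of −0.99 (SE 0.062, limma adjusted p = 0.000294) and −0.90 (SE 0.093, limma adjusted p = 0.00141), and they were the only 2 of the 93 past the study's fold threshold in the main test; E2F5 passed it too in 7 of the 15 alternatives. LRWD1 thus went down where 4 subunits of the complex it binds went up.

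E2F5, an E2F that represses in resting cells, rose from 2.72 ± 0.24 FPKM (SD, n = 3) to 4.25 ± 0.082 FPKM (SD, n = 2), with a log2 fold change of 0.56 (SE 0.081, limma adjusted p = 0.00425). LIN52, of the MuvB complex, had a log2 fold change of 0.38 (SE 0.056, limma adjusted p = 0.00481), and NPAT, the activator of histone gene transcription, 0.35 (SE 0.063, limma adjusted p = 0.00891). Enzymes outside the member list were among those that fell: DTYMK, which phosphorylates thymidylate, had a log2 fold change of −0.50 (SE 0.047, limma adjusted p = 0.000994) and SAMHD1, which degrades deoxynucleotides, −0.44 (SE 0.074, limma adjusted p = 0.00712). RNASEH2A, which removes ribonucleotides from DNA, had −0.38 (SE 0.10, limma adjusted p = 0.0314). TOP2B, a topoisomerase, had −0.36 (SE 0.042, limma adjusted p = 0.00203), and DSCC1, of a clamp loader variant used in cohesion, −0.35 (SE 0.060, limma adjusted p = 0.00759). The calls of NPAT and DSCC1 were lost when si-circVAMP3 1 or si-circVAMP3 2 was left out, that of SAMHD1 without si-circVAMP3 2, and that of RNASEH2A without si-SCR 1, si-SCR 2 or si-circVAMP3 1, the last of which gave −0.232.

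Mitotic genes, a neighbouring part of the cell cycle programme, leaned the other way from the members. Of 48 tested, 1 was higher (2.08%, against 14.6% of all genes) and 21 lower (43.8%, against 15.8% of all genes). The median log2 fold change was −0.14, with −0.152 without si-circVAMP3 1 and −0.104 without si-circVAMP3 2. Fewer of the list were called lower when either of these libraries was left out. Without si-SCR 2 the lower count was 15 (1224 over all genes). KIF20A, a kinesin of cytokinesis, had a log2 fold change of −0.72 (SE 0.058, limma adjusted p = 0.000635), and PLK1, a kinase of mitotic entry and exit, −0.66 (SE 0.049, limma adjusted p = 0.000489). CCNA2, the member shared in function between S phase and mitosis, moved with this list. CCNB1, the main mitotic cyclin, had −0.057 (SE 0.049, limma adjusted p = 0.424), and was not called. Of 34 tested genes of homologous recombination and Fanconi repair, 6 rose (17.6%, against 14.6% of all genes) and 7 fell (20.6%, against 15.8% of all genes). Their median log2 fold change was 0.002. The difference between the lists was not tested. The plot of the 4 lists shows these spreads side by side.

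**Figure D3:**
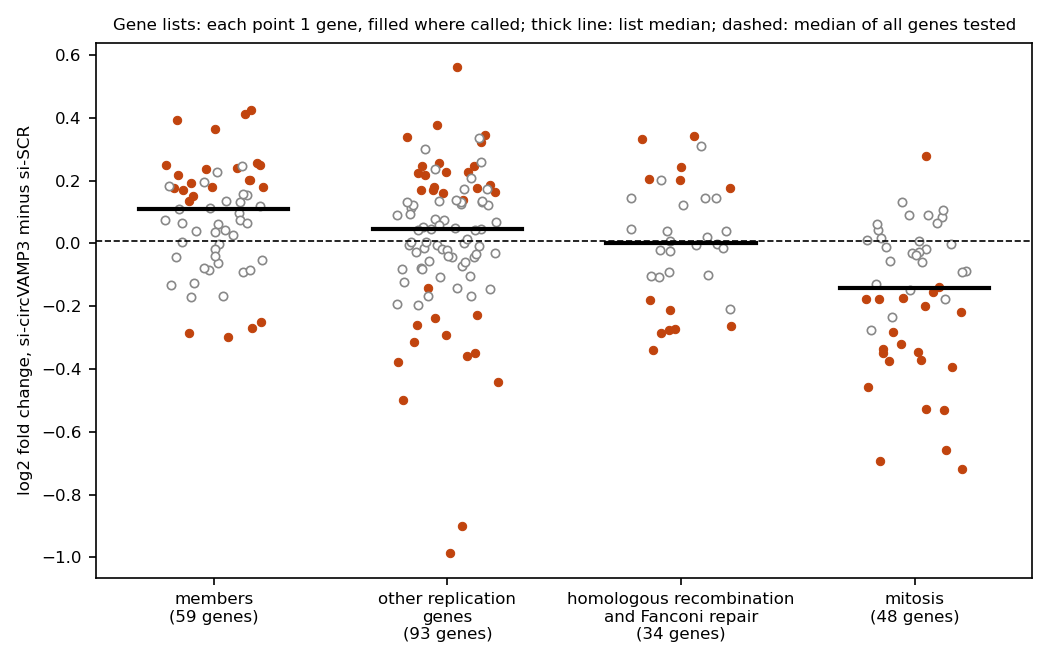
Log2 fold change (si-circVAMP3 minus si-SCR) of each tested gene in 4 lists, with filled points for genes called by limma, a thick line at each list's median and a dashed line at the median of all genes tested, 0.007. The members' median is 0.11 and that of the mitosis list −0.14, and MYBL2 and LRWD1 are the lowest points of the other replication genes.

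Regulators upstream of the E2F programme were given as context. CDKN1A, the p21 inhibitor of cyclin-dependent kinases, was listed at 11.6, 11.1 and 9.77 FPKM in the si-SCR libraries and 17.7 and 16.7 FPKM in the si-circVAMP3 libraries. It was higher in both si-circVAMP3 libraries, with a log2 fold change of 0.65 (SE 0.078, limma adjusted p = 0.00223). Of 10 tested inhibitors, D cyclins and their kinases, 2 rose, CDKN1A and CCND3 (20%, against 14.6% of all genes). The 4 that fell were CDKN2C, CDKN1B, CDK4 and CCND2 (40%, against 15.8% of all genes). CDKN2C, another inhibitor, had a log2 fold change of −0.405 (SE 0.07, limma adjusted p = 0.00751). CDKN1B, the p27 inhibitor, and CDK4, the kinase of the D cyclins, had log2 fold changes of −0.24 (SE 0.069, limma adjusted p = 0.0413) and −0.21 (SE 0.055, limma adjusted p = 0.0289), and both lost the call when si-SCR 2, si-circVAMP3 1 or si-circVAMP3 2 was left out, as did CDKN1B without si-SCR 1. Without the variance trend neither passed (limma adjusted p = 0.066 for CDKN1B and 0.0582 for CDK4), nor did CDK4 with the replicate block (0.0827) or CDKN1B with the GC correction (0.0691). CCND1 and CDK6 were not called, with 0.13 and 0.14. With 1 library left out, CCND1 ranged from 0.05 (without si-circVAMP3 2) to 0.205 (without si-circVAMP3 1). CDK6 ranged from 0.059 (without si-SCR 1) to 0.191 (without si-SCR 3). The rise of ORC1, RRM2 and CCNE2 was measured beside that of CDKN1A, and no link between them was tested.

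Base composition moved with 1 library and weakly with the comparison. Over 12210 genes with a transcript model, the log2 difference of si-SCR 3 from the mean of si-SCR 1 and 2 was set against GC content. Its Pearson correlation with the GC content of the GENCODE canonical transcript was −0.49, a description across genes that share these libraries. The corresponding value for the log2 fold change was 0.14 over all genes and 0.055 over the 59 members. POLD1 and CDT1, the most GC-rich members at 64.8% and 64.3%, differed in si-SCR 3 from the mean of the other si-SCR libraries by −0.65 and −0.54 on the log2 scale. E2F1 (61.6% GC) and TK1 (60.3% GC) differed there by −0.14 and −0.21. The called members ORC1 and E2F3, at 50.7% and 46.3% GC, had si-SCR 3 deviations of 0.005 and 0.12. With a GC correction of each library, chosen after seeing the data, 28 members and 4541 of all genes passed, including all 23 members, and the added ones were CDC6, GINS4, ORC4, POLE2 and RFC5. The plot against GC content shows both differences.

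**Figure D4:**
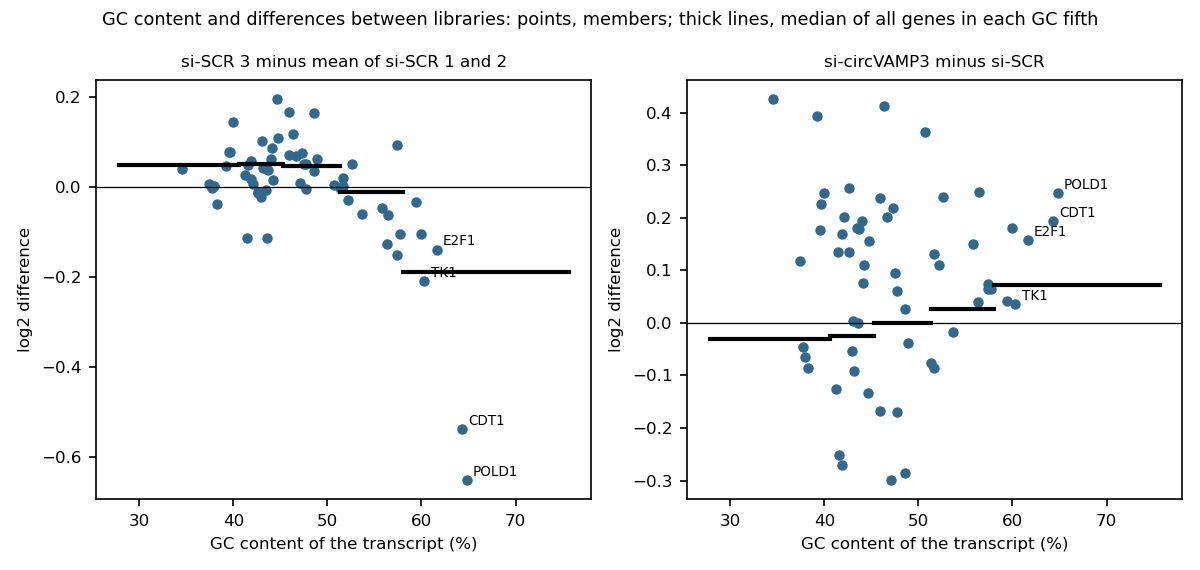
Log2 difference of si-SCR 3 from the mean of the other si-SCR libraries (left) and log2 fold change of si-circVAMP3 against si-SCR (right), against the GC content of the canonical transcript. Points are the 59 members and thick lines the median of all genes in each of 5 classes of GC content with equal numbers of genes. In the class with the highest GC the medians are −0.19 on the left and 0.072 on the right, and POLD1 and CDT1 lie lowest on the left.

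The siRNA can also pair in part with other RNAs, so matches of its seed were counted. The complement of its 19 matched bases, the strand that would guide cleavage at the junction, is shown 5′ to 3′ with bases 2 to 8 in capitals.
Guide strand: aUGUCCACcaccgaugaug
The word that pairs with those bases, GTGGACA, was present in the 3′ UTR of 1257 of 10922 tested genes with a 3′ UTR in the reference transcript (11.5%), and their median log2 fold change was −0.11, against 0.026 for those without it. Among the 59 members, CDT1 alone held it in the 3′ UTR, starting at base 15 of that region.
CDT1 site with 10 bases on each side: gggggccactGTGGACAgacgtgggct
CDT1 was not called, and RPA1, GINS2, CCNA2 and RFC1, the members that fell, had no such word in the 3′ UTR, although RFC1 held 3 and RPA1 held 1 elsewhere in the transcript, as POLE, which rose, held 2. VAMP3, which was lower, held 2 in its transcript and none in its 3′ UTR. Of the 93 other replication genes, 9 held it in the 3′ UTR, of which 2 were lower (LRWD1 and DTYMK), 1 was higher (PAICS, an enzyme of purine synthesis, with a call lost in 7 of the 15 alternatives) and 6 were not called. Over the whole transcript, DTYMK held 3, MYBL2, SAMHD1 and TOP2B 2 each, and LRWD1, RNASEH2A, DSCC1 and SSRP1 1 each, all of which fell. RBL1, CMPK1, IMPDH2, SHMT2 and PRPS2, which also fell, held none. E2F5, LIN52 and NPAT, which rose, held none, whereas RBBP4, which rose, held 1. CAD, which was not called, held 3. Other genes not called held it too, among them CDK2, CLSPN, MCM9, TOP1 and TOP2A with 1 each. Of the members not called, CHAF1A held 2, and MCM2, MCM4, MCM5, MCM6, ORC5 and RFC3, among others, held 1 each. The share of all genes tested with the word in the whole transcript was not counted. Whether the siRNA acts through such matches was not tested.

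Finally, the cells were checked against their label. Of 13 markers of the muscle lineage of this tumour, 12 were tested, led by DES at 291, 291 and 249 FPKM in the si-SCR libraries and 266 and 248 FPKM in the si-circVAMP3 libraries. The summed level of that list was 1148, 1134.5 and 992 FPKM in si-SCR and 932 and 942 FPKM in si-circVAMP3. Of its tested genes 4 fell (33.3%, against 15.8% of all genes). Among them was MYOG, a factor of muscle differentiation, with a log2 fold change of −0.76 (SE 0.081, limma adjusted p = 0.00156). Of 6 epithelial markers only KRT8 and CLDN4 were in the table, which was filtered on low genes, and they summed to 0.4, 0.3 and 0.4 FPKM in si-SCR and 0.9 and 0.8 FPKM in si-circVAMP3. Of 7 markers of blood and endothelium only PECAM1 was in it, at no more than 0.153 FPKM in any library. Of 6 fibroblast markers 3 were tested and none passed, although COL3A1, the most abundant at 33.6, 31.1 and 31.5 FPKM in the si-SCR libraries and 29.5 and 27.1 FPKM in the si-circVAMP3 libraries, was close to the threshold (limma adjusted p = 0.0518). Their part in the members' differences was not tested.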

How the data were processed

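Polyadenylated RNA of RH4 cells was sequenced in 5 libraries, 3 si-SCR and 2 si-circVAMP3. Per the submitters' processing notes, the authors used bcl2fastq 2.20.0.422, Trimmomatic, STAR 2.5.2b, HTSeq and edgeR with the build GRCh38, and deposited FPKM values per gene, made after a filter on low genes. Gene symbols were found for 13783 of 13822 gene identifiers.

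The study's methods use a likelihood-ratio test on counts. As FPKM are not counts, limma 3.58.1 (R 4.3.3) with a mean-variance trend was run here on log2(FPKM + 0.5) for the 12245 genes with a mean of at least 0.5 FPKM, with Benjamini-Hochberg adjustment and no covariate, and the script was tested on simulated data. For all 13822 genes (100.0%) the 5 values were in ratios of whole reads within 0.001 reads; the gene length cancels between libraries, and 9164 genes gave the same library size with GENCODE lengths. For 359 genes a common factor was restored, so read numbers of single genes can be too low by such a factor. Intervals for single values were not made.

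Members and lists were chosen with earlier results of these data known. Text names members with an adjusted p under 0.05, the most abundant member of each role, the 10 other replication genes with the largest called changes, VAMP3 and 5 cell cycle regulators; genes named beyond these were chosen after their values were seen. GENCODE lists pseudogenes for 13 members, among them DUT (8), PCNA, RPA2 and RRM2 (3 each), whose reads may be shared with these copies. GC content and 3′ UTRs come from GENCODE 44 transcripts, and promoters from RefSeq. Alternatives changed the pseudocount, filter, scaling, variance model, block and samples, and, chosen after seeing the data, a GC correction and limma-voom on recovered reads.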

Additional observations from a re-analysis of the deposited data

How the results depend on the processing

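All 23 called members kept their direction in the 15 alternatives. With a pseudocount of 0.1 or 1, no filter, a minimum mean of 1 FPKM or median-of-ratios scaling, the same 23 passed. Quantile normalization gave 21 members (16 higher, 5 lower) and 3561 of all genes, and no variance trend 18 members and 3401 genes. Limma-voom on the recovered reads gave 25 members, including all 23, and 4112 of all genes, with 726 genes past both thresholds against 466. With the replicate block, 20 members and 3122 genes passed and the members' median was 0.097. Deviations of same-numbered samples from their group means had correlations over genes of −0.15 and −0.036 for replicates 1 and 2. With only 2 si-circVAMP3 libraries, the deviations within that group are mirror images. These values therefore cannot show whether samples with the same number were handled together.

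Leaving out 1 library moved the counts by amounts that differed between libraries, and the cause was not tested. Members called ranged from 5 to 23, of which 4 to 19 higher and 1 to 4 lower, and all genes called from 1260 to 4000, of which 483 to 1985 higher and 777 to 2015 lower. Other replication genes called ranged from 10 to 36, and the members' median from 0.097 to 0.12. Where a si-circVAMP3 library is left out, the other is assumed to vary like the si-SCR libraries. Depth limits most the rarest member, POLA2, with 252 reads in its shallowest library.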

Other observations

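Genes outside replication that were listed as checks gave the following values. Of 18 gene symbols of the interferon response, 8 were in the table, which was filtered on low genes, and 5 were tested. Of these 1 rose (20%, against 14.6% of all genes), IFI44, with a log2 fold change of 0.63 (SE 0.10, limma adjusted p = 0.00564). For 4 of the 5, both si-circVAMP3 libraries were above every si-SCR library (80%, against 29.5% of all genes). Some of these were low, with 12 to 64 reads per library for ISG15 and 0.76 to 1.20 FPKM for RIGI. Of the 13 RNAs of the mitochondrial genome 1 fell (7.69%, against 15.8% of all genes), MT-ATP8, with −0.20 (SE 0.052, limma adjusted p = 0.0273). Among 8 housekeeping genes 4 were called (50%, against 30.4% of all genes). PPIA fell, with −0.34 (SE 0.048, limma adjusted p = 0.00402), and RPLP0, GUSB and TBP rose, with 0.34, 0.40 and 0.23. The calls of GUSB and RPLP0 were lost without si-circVAMP3 1, that of GUSB also without si-circVAMP3 2, and those of TBP and MT-ATP8 without any 1 library other than si-SCR 3. Under quantile normalization RPLP0 (0.151), TBP and MT-ATP8 were not called, nor was TBP without the variance trend or MT-ATP8 with the replicate block. CCND2, a D cyclin, was listed at 59.7, 67.3 and 65.9 FPKM in the si-SCR libraries and 41.7 and 42.8 FPKM in the si-circVAMP3 libraries and had a log2 fold change of −0.60 (SE 0.059, limma adjusted p = 0.0012), past the study's fold threshold in the main test, while its paralogue CCND3 had 0.20 (SE 0.043, limma adjusted p = 0.0142) and lost its call when si-circVAMP3 1 or si-circVAMP3 2 was left out.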
